A study of Homo sapiens with 16 samples.

Results

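Interferon-stimulated genes are genes that cells switch on when an interferon binds its receptor. The set described here has 49 members of the 23575 genes in the deposited count table. They were listed by name, without a threshold on any measured value, when earlier results of these data were known. RNA was sequenced from HL-60, a human promyelocytic leukaemia line labelled WT, in 16 libraries of 10 groups. Differentiated cells (dHL-60), a neutrophil-like state, were left untreated or given 1 or 10 µg/ml lipoteichoic acid (LTA, a cell wall glycolipid) of Staphylococcus aureus, and were collected at 4 or 24 h, with 2 libraries in each of these 6 groups. Undifferentiated cells (uHL-60) had 4 groups, with and without 1 µg/ml LTA at each time, of 1 library each, so a uHL-60 value has no replicate. The sources used here do not name the differentiation agent. The labels leave unsaid whether the paired dHL-60 libraries are separate cultures. Their p-values therefore measure the spread between libraries alone, which may be technical.

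Type I and type III interferons signal through JAK1 and TYK2 to a complex with STAT2 and IRF9 that binds a DNA element called the ISRE, and interferon gamma signals through JAK1 and JAK2 to factors that bind the GAS element. The induced proteins sense or degrade viral RNA, block entry or release of viruses, modify other proteins with ISG15, or attack the vacuoles of intracellular bacteria. Several of these genes are also reached without interferon, by IRF3 or by NF-κB, the factor that Toll-like receptors activate. LTA is sensed by TLR2, a Toll-like receptor of myeloid cells.

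The 49 members together made up a small part of the counts in these cells. Library totals ran from 9653374 to 20157081 counts, and the members together took between 0.0937 and 0.133% of them in dHL-60 and between 0.0807 and 0.0868% in uHL-60. Levels are given as CPM, counts relative to the library total after scaling by TMM (a factor that evens out library composition), and in the order of replicates 1 and 2. The median member stood at 6.29 CPM in untreated dHL-60 at 4 h, where 12 members were under 1 CPM and 22 at 10 CPM or more. Per kilobase of exon, TRIM21 (88.6 CPM per kb), IFITM2 (75.2), BST2 (64.3) and ADAR (28.5) were the highest members in that group, and IFIT1 stood at 0.149. A filter on low counts kept 41 members for the tests within dHL-60. The 8 others were OAS2, OASL, USP18, RSAD2, IFI44, IFI44L, XAF1 and EPSTI1. Of the 41, IFIT1, IFIT2, IFIT5, GBP1, GBP4 and GBP5 passed the filter only through libraries that received LTA, so counts are also given for the 35 that the untreated libraries alone would keep.

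Promoter sequences are shown because type I and type III interferons act through the ISRE and interferon gamma through GAS. The window ran from 250 bases before to 50 after the start of the gene and was found for 40 of the 49 members. On either strand, the ISRE core GAAANNGAAA occurred in 28 of these 40 windows (70.0%) and in 996 of all 27305 windows in the table (3.65%). The GAS core TTCNNNGAA occurred in 8 of 40 (20.0%, against 7.88% of all windows) and the κB consensus, the site of NF-κB, in 6 of 40 (15.0%, against 5.72%). ISRE and GAS matches overlapped in 3 members. A match is a description of the letters, not a bound site. The stretches below are from RefSeq on GRCh38.p14, read 5′ to 3′ on the strand of the gene, with ISRE letters in capitals (and, for IFIH1, the κB match as the first run of capitals). They are shown for members that fell early and rose late with LTA (IFIT1, IFIT3, IFITM1), that rose at both times (IFIH1, GBP1, TNFSF10) and that passed no test with LTA (ISG15).
IFIT1, chr10:89392487-89392549, plus strand: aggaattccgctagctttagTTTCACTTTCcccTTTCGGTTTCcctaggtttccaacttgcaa
IFIT3, chr10:89327821-89327904, plus strand: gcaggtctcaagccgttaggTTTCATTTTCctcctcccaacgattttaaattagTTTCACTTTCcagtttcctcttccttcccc
IFITM1, chr11:313980-314029, plus strand: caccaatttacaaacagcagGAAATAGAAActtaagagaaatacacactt
IFIH1, chr2:162318685-162318780, minus strand: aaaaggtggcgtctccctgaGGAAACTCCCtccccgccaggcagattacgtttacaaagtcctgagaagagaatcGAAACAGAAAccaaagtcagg
GBP1, chr1:89065306-89065355, minus strand: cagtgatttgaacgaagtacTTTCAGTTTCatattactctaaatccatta
TNFSF10, chr3:172523588-172523637, minus strand: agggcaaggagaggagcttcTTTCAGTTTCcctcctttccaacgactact
ISG15, chr1:1013364-1013419, plus strand: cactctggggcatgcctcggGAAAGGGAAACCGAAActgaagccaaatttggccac

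After 4 h of LTA the members split. The guanylate-binding proteins GBP1, GBP2, GBP4 and GBP5, the RNA sensor IFIH1, the death ligand TNFSF10, the scramblase PLSCR1 and the ADP-ribosyltransferase PARP14 rose with both doses, while IFIT3, OAS1, MX2, UBE2L6, PARP9, TRIM22, IFITM1, IFITM2, IFI16 and SP110 fell with both. With 1 µg/ml, 8 of 41 tested members rose (19.5%, against 18.7% of all 11866 genes tested) and 13 fell (31.7%, against 20.1%). With 10 µg/ml, 8 rose (against 20.0% of all genes) and 11 fell (26.8%, against 21.3%). The shares of members that rose were near those of all genes, and so was the share that fell with 10 µg/ml. The median member changed by -0.45 and -0.40 on the log2 scale with 1 and 10 µg/ml, and the median gene by -0.04 with either dose. Among the 35 members kept by untreated libraries alone, 5 rose and 12 fell with 1 µg/ml, and 5 and 11 with 10 µg/ml. Both doses were set against the same 2 untreated libraries. Upper-quartile scaling moved the median of all genes by -0.12 and -0.13 in these comparisons. Every change named here comes from edgeR's quasi-likelihood test at a Benjamini-Hochberg adjusted p under 0.05 over all genes tested. In each called member of the comparisons with untreated cells the 2 libraries of one group lay on the same side of both libraries of the other. That position was not counted over all genes and follows closely from a call, so it adds no separate support. Calls at 4 h rested in part on single libraries: without replicate 1 of the 1 µg/ml group 8 members fell, and without replicate 1 of the 10 µg/ml group 4 fell.

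**Figure D1:**
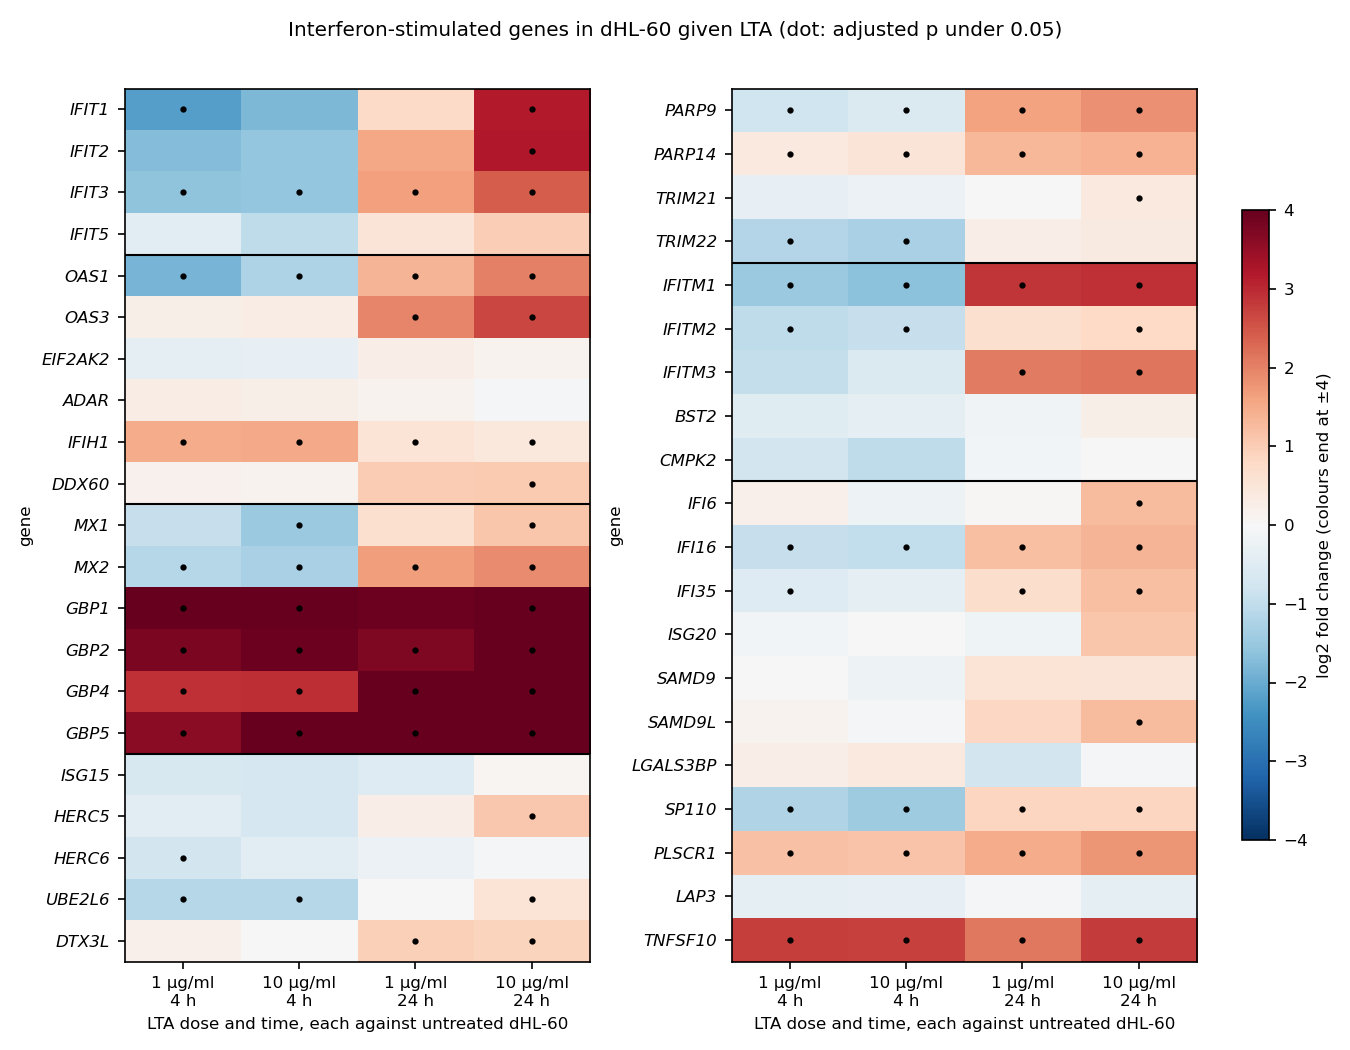
Log2 fold change (colour, ending at 4 in either direction) of the 41 tested members in dHL-60 given LTA against untreated cells of the same time, by dose and time, with lines between functional classes and a dot where the adjusted p was under 0.05. The early columns hold both blue and red and the late columns are red or pale, and the 24 h colours of GBP1, GBP4 and GBP5 rest on an untreated group with 0 counts and are not sizes.

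The IFIT proteins bind viral RNA whose 5′ end differs from that of the cell. IFIT3 stood at 4.53 and 5.31 CPM in untreated dHL-60 at 4 h, at 0.621 and 2.36 with 1 µg/ml LTA and at 1.18 and 2.17 with 10 µg/ml. Both treated groups lay below both untreated libraries, and the fall was -1.60 ± 0.41 (log2 fold change ± SE, adjusted p = 0.00727) and -1.54 ± 0.41 (0.00867). Without replicate 1 of the 10 µg/ml group the second call was lost (adjusted p = 0.0944), and the first was kept under every alternative run. IFIT1 had 15 counts over the untreated libraries at 4 h (0.515 and 0.857 CPM) and 3 counts with 1 µg/ml (0.124 and 0.157 CPM), a ratio of 0.206 (95% exact binomial interval, counting error only, 0.0382 to 0.728, adjusted p = 0.0432), and the call was lost without any one of the 4 libraries (adjusted p up to 0.208). With 10 µg/ml IFIT1 stood at 0.197 and 0.189 CPM, which was not called (-1.79 ± 0.75, adjusted p = 0.072). IFIT2 was uneven in untreated cells (0.412 and 2.40 CPM) and, like IFIT5, was called at 4 h with neither dose.

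At 24 h the calls in this family were rises, in IFIT3 with both doses, in IFIT1 and IFIT2 with 10 µg/ml and in IFIT5 with neither. IFIT3 stood at 1.02 and 1.05 CPM untreated, at 3.44 and 3.03 with 1 µg/ml and at 5.56 and 5.33 with 10 µg/ml, and the 3 groups did not overlap. The rise was 1.65 ± 0.42 (adjusted p = 0.0122) and 2.41 ± 0.40 (0.000346). IFIT1 stood at 0.160 and 0.299 CPM untreated, at 0.219 and 0.526 with 1 µg/ml and at 2.53 and 1.59 with 10 µg/ml. Only the higher dose stood apart (3.18 ± 0.55, adjusted p = 0.000442), and it exceeded the lower dose by 2.41 ± 0.51 (0.0198). That difference between doses was lost without either 1 µg/ml library or without replicate 1 of the 10 µg/ml group (adjusted p up to 0.236). IFIT2 likewise rose with 10 µg/ml alone, from 0.160 and 0.0747 CPM to 1.09 and 1.32 (3.21 ± 0.84, adjusted p = 0.00754). IFIT1 and IFIT2 passed the filter on low counts only through libraries that received LTA. Among those libraries both were highest with 10 µg/ml at 24 h, so their p-values there add no separate support. IFIT5 stood at 0.588 and 0.523 CPM untreated, at 0.877 and 0.724 with 1 µg/ml and at 0.926 and 1.25 with 10 µg/ml. The calls with 10 µg/ml were kept for IFIT1, IFIT2 and IFIT3, while that of IFIT3 with 1 µg/ml was lost without either untreated library or without replicate 1 of the treated group (adjusted p up to 0.0861).

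Of the enzymes and sensors that act on RNA, OAS1 and OAS3 make the 2′-5′ oligoadenylates that activate RNase L. OAS1 read 2.99 and 1.71 CPM in untreated dHL-60 at 4 h, 0.621 and 0.630 with 1 µg/ml and 0.691 and 1.23 with 10 µg/ml, so both treated groups lay below. It fell by 1.87 ± 0.47 (adjusted p = 0.006) and 1.25 ± 0.43 (0.0315). Without untreated replicate 1 neither call held (adjusted p = 0.0587 with 1 µg/ml), and the second was also lost without replicate 1 of its group, with DESeq2 and in a fit of only the groups compared (adjusted p up to 0.235). At 24 h OAS1 read 1.5 and 1.2 CPM untreated, 2.78 and 4.15 with 1 µg/ml and 5.81 and 5.20 with 10 µg/ml, a rise of 1.36 ± 0.35 (0.0137, lost without either untreated library or without treated replicate 2, adjusted p up to 0.134) and 2.03 ± 0.34 (0.000371). OAS3 was not called at 4 h and rose at 24 h by 1.94 ± 0.29 (0.000374) and 2.66 ± 0.29 (9.69e-06), from an untreated level of 4.17 and 4.11 CPM that was itself below the 13.3 and 16.4 CPM of untreated cells at 4 h.

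IFIH1 (MDA5), the cytoplasmic sensor of long double-stranded RNA, rose at both times, and more at 4 h than at 24 h. It stood at 17.5 and 16.4 CPM in untreated dHL-60 at 4 h, at 46.6 and 47.9 with 1 µg/ml and at 46.9 and 49.3 with 10 µg/ml, a rise of 1.48 ± 0.15 (adjusted p = 4.91e-06) and 1.51 ± 0.15 (3.64e-06). At 24 h it stood at 15.9 and 14.0 CPM untreated, 23.3 and 20.1 with 1 µg/ml and 18.1 and 20.9 with 10 µg/ml. These late rises were small, 0.55 ± 0.15 (0.0171) and 0.41 ± 0.15 (0.0417), and the one with 10 µg/ml was lost without any one of the 4 libraries (adjusted p up to 0.23) and the one with 1 µg/ml without untreated replicate 2 or treated replicate 1 (up to 0.176). DDX60, a helicase related to the RNA sensors, was called only at 24 h with 10 µg/ml (1.04 ± 0.37, 0.0367, lost without any one of the 4 libraries, adjusted p up to 0.214). The RNA-dependent kinase EIF2AK2 (PKR) and the RNA-editing enzyme ADAR passed no test with LTA. ADAR stood between 256 and 349 CPM in every dHL-60 library.

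The dynamin-like GTPases MX1 and MX2 block incoming viral particles, and MX2 followed the pattern of IFIT3. MX2 stood at 10.2 and 13.1 CPM untreated at 4 h, at 3.60 and 6.77 with 1 µg/ml and at 3.95 and 5.39 with 10 µg/ml, a fall of 1.13 ± 0.27 (adjusted p = 0.00486) and 1.31 ± 0.27 (0.0018). At 24 h it stood at 4.44 and 3.88 CPM untreated, at 14.0 and 12.2 with 1 µg/ml and at 16.9 and 13.9 with 10 µg/ml, a rise of 1.66 ± 0.26 (0.000501) and 1.90 ± 0.26 (6.75e-05). All treated libraries lay on 1 side of the untreated ones at each time. MX1 was weaker in expression and in call: it stood at 2.06 and 2.57 CPM untreated at 4 h, 0.87 and 1.5 with 1 µg/ml and 0.691 and 0.945 with 10 µg/ml, where only the last was called (-1.49 ± 0.46, 0.0196, lost without untreated replicate 2 or either treated library, adjusted p up to 0.126). At 24 h MX1 stood at 1.44 and 1.27 CPM untreated, 2.63 and 1.58 with 1 µg/ml and 3.62 and 2.22 with 10 µg/ml, with only the last called again (1.10 ± 0.38, 0.032, lost with DESeq2 and without either untreated library or treated replicate 1, adjusted p up to 0.317).

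The guanylate-binding proteins coat and break the vacuoles of intracellular pathogens, and they had the largest early rises among the tested members. GBP1, GBP4 and GBP5 passed the filter on low counts only through libraries that received LTA, where they were high. GBP2 alone of these genes would be kept by the untreated libraries. GBP2 stood at 18.1 and 14.6 CPM in untreated dHL-60 at 4 h, at 239 and 210 with 1 µg/ml and at 257 and 238 with 10 µg/ml, a rise of 3.78 ± 0.21 (adjusted p = 3.86e-08) and 3.93 ± 0.21 (2.57e-08). GBP5 went from 0.515 and 0.514 CPM to 5.09 and 7.48 and to 8.29 and 8.32, a rise of 3.60 ± 0.38 (1.23e-05) and 3.99 ± 0.37 (3.8e-06). GBP1 had 3 counts over the untreated libraries (0.206 and 0.0857 CPM) and stood at 3.11 and 3.70 CPM with 1 µg/ml and at 2.96 and 4.25 with 10 µg/ml, ratios of 24.7 (95% exact binomial interval 8.13 to 123) and 25.8 (8.50 to 128), and both were called (adjusted p = 7.51e-05 and 5.61e-05). GBP4 rose by 2.92 ± 0.65 (0.00339) and 2.94 ± 0.65 (0.00296) from 4 untreated counts. No GBP library with LTA at 4 h overlapped an untreated one.

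At 24 h every GBP stood below its 4 h level with LTA in both treated groups. GBP2 stood at 0.963 and 0.971 CPM untreated, at 9.94 and 15.7 with 1 µg/ml and at 26.2 and 33.0 with 10 µg/ml, a rise of 3.73 ± 0.29 (adjusted p = 1.28e-06) and 4.95 ± 0.27 (2.38e-08). The difference between its doses was called (1.22 ± 0.20, 0.00478) and was kept under every alternative run. GBP1, GBP4 and GBP5 had 0 counts in both untreated libraries at 24 h, and a fold against them is a lower bound taken at 3 counts over the group. GBP5, at 0.877 and 0.658 CPM with 1 µg/ml and 1.94 and 2.42 with 10 µg/ml, was at least 8.15-fold and at least 23.6-fold higher (adjusted p = 0.000609 and 7.82e-06). GBP4, with 8 and 6 counts, was at least 2.96-fold and at least 2.44-fold higher (0.0223 and 0.02), and each call was lost without either untreated library or without replicate 2 of the treated group (adjusted p up to 0.145 and 0.1). GBP1, with 4 counts, was not called with 1 µg/ml, where the exact binomial interval of the ratio included 1, and with 8 counts was called with 10 µg/ml (at least 3.25-fold higher, 0.00933, lost without untreated replicate 1, adjusted p = 0.0596).

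ISG15 is a ubiquitin-like tag, with UBE2L6 as its conjugating enzyme, HERC5 as its ligase and USP18 as its protease. ISG15 itself passed no test with LTA: at 4 h it stood at 14.7 and 8.40 CPM untreated, 7.45 and 7.32 with 1 µg/ml and 7.01 and 7.37 with 10 µg/ml, and at 24 h at 9.20 and 11.2, 6.87 and 7.24, and 13.3 and 8.11 CPM. UBE2L6 stood at 35.4 and 32.1 CPM untreated at 4 h against 14.3 and 16 with 1 µg/ml and 15.8 and 15.0 with 10 µg/ml, and fell by 1.15 ± 0.15 (adjusted p = 3.37e-05) and 1.13 ± 0.14 (3.75e-05). At 24 h it was not called with 1 µg/ml and rose by 0.55 ± 0.14 (0.0057) with 10 µg/ml, a call lost without untreated replicate 2 or treated replicate 1 (adjusted p up to 0.0699). HERC5 was called only at 24 h with 10 µg/ml (1.09 ± 0.35, 0.0222, lost with DESeq2 and without any one of the 4 libraries, adjusted p up to 0.119), and its relative HERC6 only at 4 h with 1 µg/ml (-0.73 ± 0.25, 0.0343, lost with DESeq2, in a fit of only the groups compared, and without untreated replicate 2 or either treated library, adjusted p up to 0.182).

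PARP9 works in a complex with the ubiquitin ligase DTX3L, and PARP14 is a related ADP-ribosyltransferase. The 3 genes lie near each other on chromosome 3, PARP9 at 122527924 to 122564784, DTX3L at 122564338 to 122575203 and PARP14 at 122680839 to 122730840 (GRCh38), and they differed at 4 h. PARP9 stood at 17.1 and 18.1 CPM untreated at 4 h and fell to 8.32 and 11.7 with 1 µg/ml and to 11.8 and 11.5 with 10 µg/ml (-0.79 ± 0.18, adjusted p = 0.00342, and -0.58 ± 0.18, 0.0176, the latter lost without untreated replicate 2 or either treated library, adjusted p up to 0.0778). PARP14 rose (0.38 ± 0.14, 0.04, and 0.51 ± 0.14, 0.00839). The first of these rises was lost without untreated replicate 1 or either treated library, with no filter, in a fit of only the groups compared and with upper-quartile scaling (adjusted p up to 0.258), and the second without untreated replicate 1 or treated replicate 1 (up to 0.0848). DTX3L was not called at 4 h. At 24 h PARP9 rose from 7.92 and 7.69 CPM to 24.9 and 22.0 and to 28.5 and 26.5 (1.60 ± 0.17, 2.48e-05, and 1.84 ± 0.17, 2.74e-06). PARP14 and DTX3L rose too, PARP14 by 1.32 ± 0.14 and 1.38 ± 0.14 and DTX3L by 0.95 ± 0.19 and 0.88 ± 0.19. Of the tripartite-motif ligases, the cytosolic antibody receptor TRIM21 was called only at 24 h with 10 µg/ml (0.38 ± 0.13, 0.0279), a call lost without either untreated library or treated replicate 1, with no filter, in a fit of only the groups compared and with upper-quartile scaling (adjusted p up to 0.345). TRIM22, an antiviral ligase, fell at 4 h with both doses (-1.16 ± 0.25, 0.00241, and -1.29 ± 0.25, 0.00112) and was not called at 24 h.

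The IFITM proteins sit in membranes and hinder fusion of viruses with the cell. IFITM1 stood at 2.16 and 2.14 CPM untreated at 4 h, at 0.497 and 0.945 with 1 µg/ml and at 0.592 and 0.756 with 10 µg/ml, a fall of 1.49 ± 0.42 (adjusted p = 0.0132) and 1.65 ± 0.43 (0.00796), each lost without replicate 1 of the treated group (adjusted p = 0.0827 and 0.0645). At 24 h IFITM1 stood at 1.23 and 1.42 CPM untreated, at 7.90 and 11.1 with 1 µg/ml and at 8.0 and 11.7 with 10 µg/ml, a rise of 2.86 ± 0.30 (1.83e-05) and 2.93 ± 0.30 (5.74e-06). The 2 doses overlapped and both stood apart from the untreated libraries. IFITM3 stood at 2.16 and 1.11 CPM untreated at 4 h, at 1.12 and 0.630 with 1 µg/ml and at 0.691 and 1.42 with 10 µg/ml, which was not called. At 24 h IFITM3 went from 0.214 and 0.896 CPM to 1.97 and 2.37 and to 2.44 and 2.08 (2.08 ± 0.55, 0.0163, and 2.14 ± 0.56, 0.00749), calls lost without untreated replicate 1 (adjusted p up to 0.18) and, for 1 µg/ml, without either treated library. IFITM2 fell at 4 h by 1.03 ± 0.25 and 0.92 ± 0.24 and rose at 24 h with 10 µg/ml (0.81 ± 0.24, 0.015), and each of these 3 calls was lost without untreated replicate 1 or 1 treated library, replicate 2 with 1 µg/ml at 4 h and with 10 µg/ml at 24 h and replicate 1 with 10 µg/ml at 4 h (adjusted p up to 0.124). These genes are near-identical copies side by side on chromosome 11, with 32.5% of the exon bases of IFITM1 and 22.7% of those of IFITM2 covered by the other gene, and 21.3% of those of IFITM3 by a gene of the opposite strand, so reads could be split between them and their values are uncertain. The tetherin gene BST2, which holds budding viruses at the surface, and CMPK2, a mitochondrial nucleotide kinase, passed no test with LTA.

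TNFSF10 (TRAIL), a ligand that triggers apoptosis, was high with LTA at both times. It stood at 9.47 and 6.25 CPM untreated at 4 h, at 49.1 and 56.9 with 1 µg/ml and at 57.3 and 46.4 with 10 µg/ml, a rise of 2.76 ± 0.20 (adjusted p = 2.76e-07) and 2.74 ± 0.20 (2.57e-07). At 24 h it stood at 7.81 and 7.10 CPM untreated, at 33.0 and 30.3 with 1 µg/ml and at 50.8 in both libraries with 10 µg/ml, a rise of 2.1 ± 0.19 (5.21e-06) and 2.79 ± 0.19 (1.58e-07). PLSCR1, a phospholipid scramblase, rose in the same 4 comparisons by 1.16 ± 0.16, 1.14 ± 0.16, 1.47 ± 0.16 and 1.77 ± 0.16. IFI16, a DNA sensor, fell by 0.93 ± 0.25 and 0.97 ± 0.25 at 4 h and rose by 1.19 ± 0.24 and 1.35 ± 0.24 at 24 h, and its 4 h calls were lost without untreated replicate 2 or replicate 1 of the treated group (adjusted p up to 0.097). The nuclear body protein SP110 fell by 1.19 ± 0.23 and 1.43 ± 0.23 and then rose by 0.86 ± 0.21 with each dose (with 1 µg/ml lost without either untreated library or treated replicate 2, adjusted p up to 0.064), on exons that share 20.9% of their bases with a gene on the other strand. IFI35 fell at 4 h with 1 µg/ml alone (-0.53 ± 0.17, 0.0265, lost with DESeq2, in a fit of only the groups compared, and without untreated replicate 1 or either treated library, adjusted p up to 0.21) and rose at 24 h by 0.71 ± 0.16 (lost without treated replicate 2, adjusted p = 0.0796) and 1.21 ± 0.16. IFI6 and SAMD9L were called only at 24 h with 10 µg/ml, SAMD9L from 5.40 and 5.53 CPM to 11.4 and 14.6 (adjusted p = 0.00718) and IFI6 as given with the doses below (0.00189). ISG20, an RNA exonuclease, SAMD9, LGALS3BP and the aminopeptidase LAP3 passed no test with LTA.

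The 8 untested members were near the limit of detection at these depths. RSAD2 (viperin), which makes a chain-terminating nucleotide, had 5 counts over the untreated libraries at 4 h (0.206 and 0.257 CPM), and 2 (0.248 and 0 CPM) and 3 (0.197 and 0.0945 CPM) with 1 and 10 µg/ml. At 24 h RSAD2 had 2, 2 and 7 counts over the untreated, 1 µg/ml and 10 µg/ml groups (0.107 and 0, 0.0731 and 0.0658, and 0.421 and 0.139 CPM). None of its ratios to untreated cells had an exact binomial interval that left out 1. OAS2 had 2 counts untreated at 24 h and 15 with 10 µg/ml, a ratio of 9.14 (2.13 to 82.4), and IFI44L and EPSTI1, at 0 counts untreated, were at least 2.84-fold and at least 2.44-fold higher with 10 µg/ml. USP18 never exceeded 0.208 CPM in a dHL-60 library and XAF1, OASL and IFI44 never exceeded 0.787.

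At 24 h no tested member was called lower with either dose by edgeR, 29 rose with 10 µg/ml and 18 with 1 µg/ml, and the 18 were among the 29. With 10 µg/ml the 29 of 41 were 70.7%, against 23.6% of all genes tested called higher and 19.0% called lower. With 1 µg/ml the 18 were 43.9%, against 13.9% higher and 7.26% lower. The 35 members kept by untreated libraries alone gave 24 and 16. The median member rose by 0.77 with 1 µg/ml (0.71 with the 3 members at 0 counts set at their bound) and by 1.10 with 10 µg/ml (1.10 at the bound), and the median gene changed by 0.01 and -0.01. Leaving out single libraries gave 20 to 24 members higher with 10 µg/ml and 13 to 16 with 1 µg/ml. LAP3 was called lower with 10 µg/ml without untreated replicate 2 (-0.56, adjusted p = 0.0262) and with upper-quartile scaling (-0.44, 0.0383). In all, 23 members had an unadjusted p under 0.05 with 1 µg/ml and 32 with 10 µg/ml, in either direction, and DESeq2 also called 0 members lower. At 24 h the doses were again set against the same 2 untreated libraries.

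Doses could be compared directly. At 4 h edgeR called 0 members between 10 and 1 µg/ml, 0 had an unadjusted p under 0.05, DESeq2 called 0, and 1 gene of all tested was called (0.00843% higher, 0.0% lower). At 24 h, 6 members were higher with 10 than with 1 µg/ml (IFIT1, GBP2, GBP5, UBE2L6, IFI6 and TNFSF10, 14.6%, against 3.03% of all genes), 4 of them among the 35 kept by untreated libraries alone, and 0 lower (against 0.792%; edgeR's unadjusted p was under 0.05 for 13 members in all). IFI6 stood at 2.85 and 3.88 CPM with 1 µg/ml and at 8.34 and 7.55 with 10 µg/ml, and GBP5, above, differed by 1.52 ± 0.37 (adjusted p = 0.0404). Of the 6 members, GBP2 alone kept its call under every alternative run. Without replicate 1 of the 10 µg/ml group, or either library of the 1 µg/ml group, 1 member was called, and without replicate 2 of the 10 µg/ml group 3 were.

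**Figure D2:**
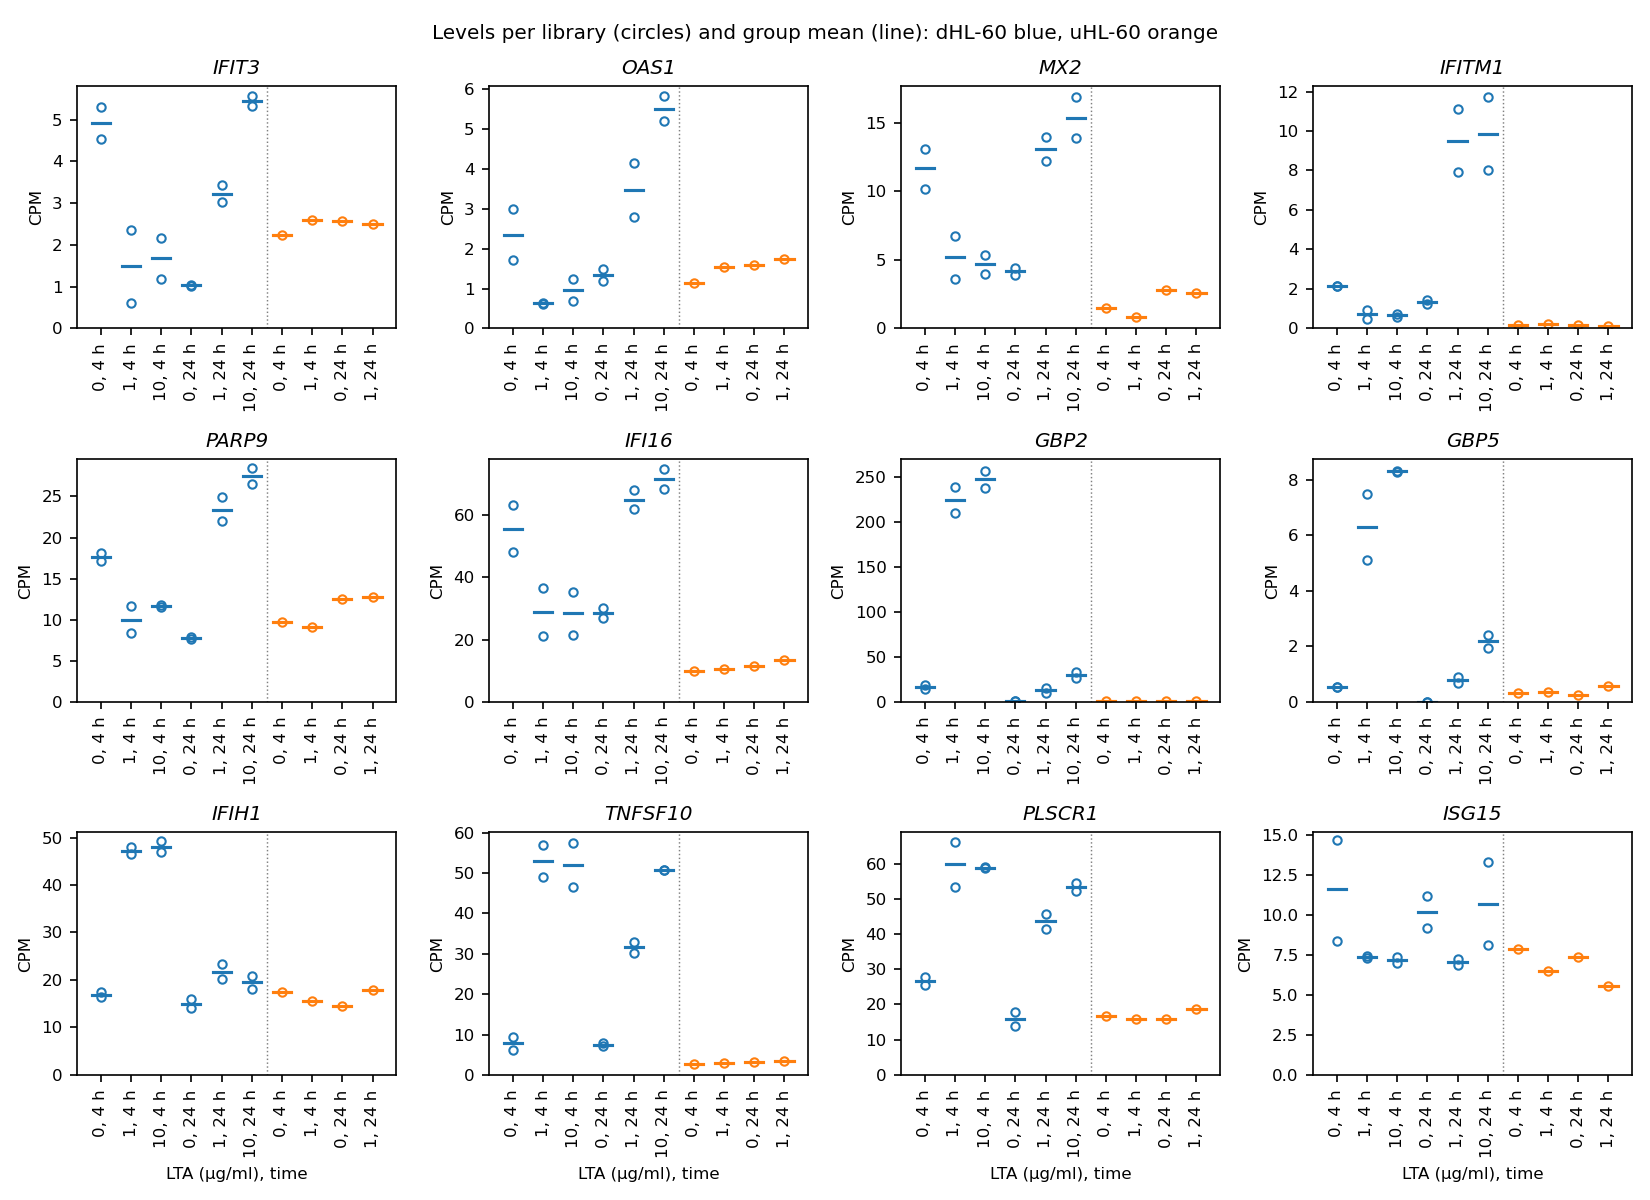
Levels (CPM, linear axes starting at 0) of 12 members in each library (circles) with the group mean (line), by LTA dose in µg/ml and time, dHL-60 in blue and uHL-60 in orange. In the first 6 panels untreated 4 h cells stand above LTA at 4 h and untreated 24 h cells stand below LTA at 24 h, GBP2 and GBP5 peak at 4 h, and uHL-60 libraries differ little from each other.

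Untreated dHL-60 changed over time, and this bears on every 24 h comparison. Between 4 and 24 h, 23 of 41 members fell (56.1%, against 23.1% of all genes) and 1 rose (2.44%, against 17.8%), with a median of -0.83 (-0.76 at the bound, against -0.04 for all genes). Among the 35 kept by untreated libraries 20 fell. LAP3 was the member that rose, from 26.6 and 22.9 to 51.6 and 39.4 CPM (0.89 ± 0.16, adjusted p = 0.000841). GBP5, with 11 counts at 4 h and 0 at 24 h, was at least 5.5-fold lower (0.00143), and GBP2 fell by 4.06 ± 0.29 (5.11e-07). GBP4, with 4 counts and 0, was called lower (adjusted p = 0.0376), but the call was lost without any one of the 4 libraries (up to 0.148) and the exact binomial interval of its ratio, up to 1.01, included 1. MX2 fell by 1.47 ± 0.27, OAS3 by 1.84 ± 0.30, IFIT3 by 2.24 ± 0.41 and PARP9 by 1.17 ± 0.18. Without replicate 1 of 24 h, or replicate 2 of 4 h, 14 members fell.

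Set against untreated cells of 4 h instead, the late groups looked different. Both untreated libraries at 24 h lay below both untreated libraries at 4 h for 32 of 41 members and above them for 1, with overlap for 8. With 1 µg/ml LTA at 24 h, 9 members lay above the 4 h untreated libraries, 11 below and 21 overlapped. With 10 µg/ml 20 lay above, 5 below (TRIM21, BST2, CMPK2, ISG20 and LGALS3BP) and 16 overlapped. IFIT3 with 10 µg/ml at 24 h (5.56 and 5.33 CPM) was thus just above its untreated 4 h level of 4.53 and 5.31, while IFITM1 and TNFSF10 were well above theirs. These positions carry no test. Of the 6 dHL-60 groups, the untreated 24 h group had the lowest mean for 22 of the 41 members. The 10 µg/ml 24 h group had the highest mean for 15. Neither the positions nor these means were counted over all genes, so whether the members stand out in them was not tested.

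**Figure D3:**
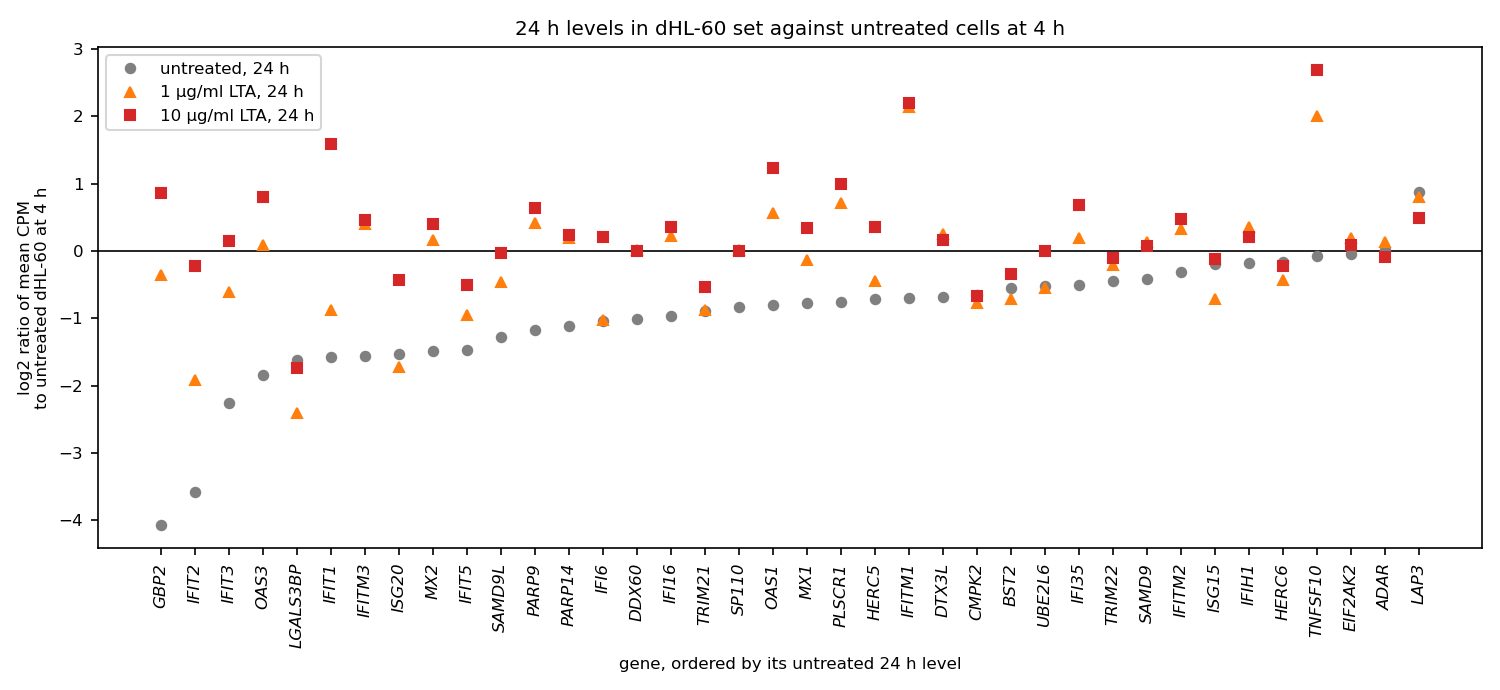
Log2 ratio of the mean CPM at 24 h to the mean CPM of untreated dHL-60 at 4 h, for the 38 tested members with counts in every dHL-60 group (GBP1, GBP4 and GBP5 are left out), ordered by the untreated 24 h level. Most grey circles (untreated, 24 h) lie below 0 and red squares (10 µg/ml, 24 h) lie around or above 0 for most members.

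Whether the response itself differed between times was tested as an interaction. With 1 µg/ml the response at 24 h exceeded that at 4 h in 14 of 41 members (34.1%, against 13.3% of all genes) and was below it in 1 (2.44%, against 7.41%). With 10 µg/ml it exceeded it in 25 (61.0%, against 19.7%) and was below it in 1 (against 14.0%). Among the 35 members kept by untreated libraries alone it exceeded it in 14 and 22. The 1 member below was IFIH1 with each dose (-0.93 ± 0.21, adjusted p = 0.00645, and -1.11 ± 0.21, 0.00145), kept under every alternative run. Without replicate 1 of the 10 µg/ml group at 4 h the 25 became 16, and without untreated replicate 1 of 4 h 2 members were below with 1 µg/ml. IFITM1 had a difference of 4.35 ± 0.52 (7.78e-05) with 1 µg/ml and 4.58 ± 0.52 (3.55e-05) with 10 µg/ml. IFIT3 had one of 3.26 ± 0.59 (0.00154) and 3.95 ± 0.58 (0.000218), and MX2 one of 2.78 ± 0.37 (0.000202) and 3.21 ± 0.38 (4.47e-05). In all, 12 members were called lower at 4 h with at least 1 dose and higher at 24 h with 10 µg/ml: IFIT1, IFIT3, OAS1, MX1, MX2, UBE2L6, PARP9, IFITM1, IFITM2, IFI16, IFI35 and SP110. The members called higher in all 4 comparisons were IFIH1, GBP2, GBP4, GBP5, PARP14, PLSCR1 and TNFSF10, and 10 members were called in none. These patterns over several comparisons were not counted over all genes, so whether they are particular to the members was not tested.

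**Figure D4:**
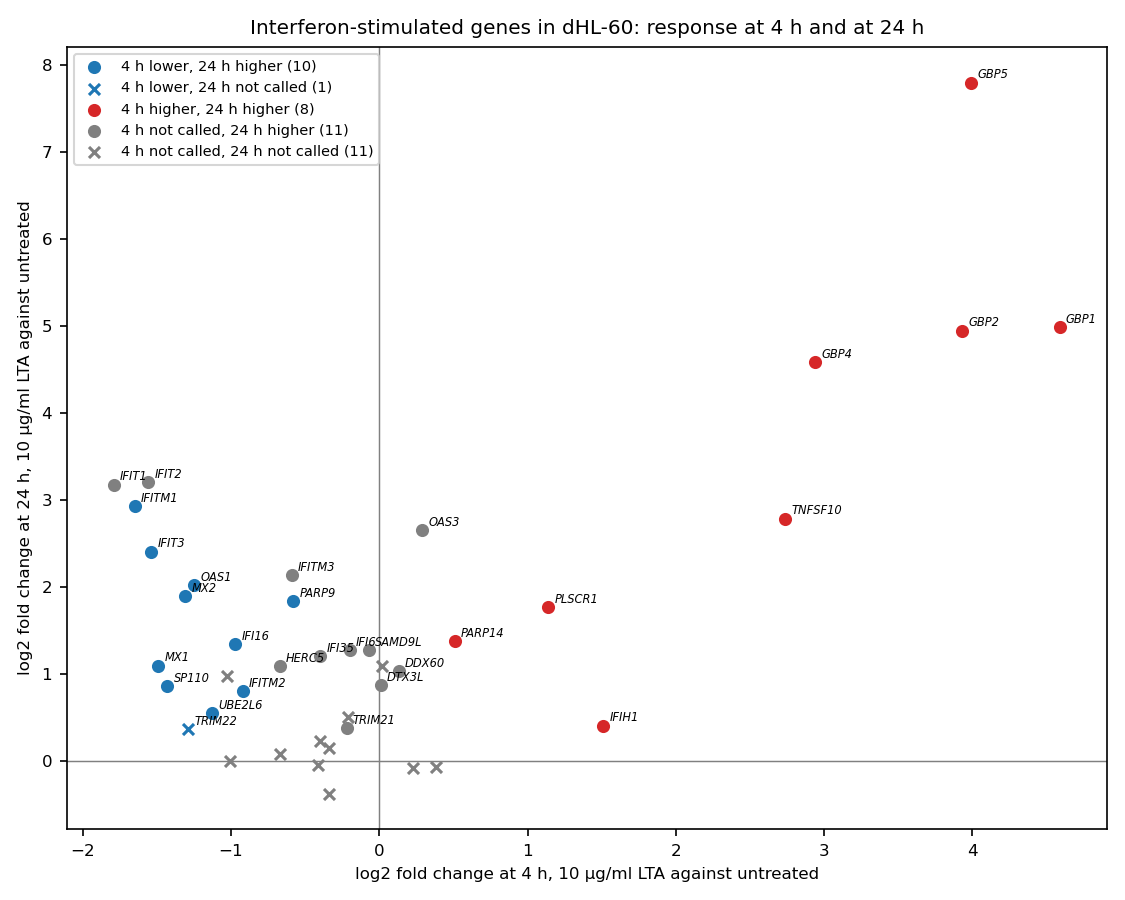
Log2 fold change with 10 µg/ml LTA against untreated dHL-60 at 4 h (x axis) and 24 h (y axis) for the 41 tested members, coloured by the call at 4 h and marked by the call at 24 h. The 10 blue circles at upper left fell at 4 h and rose at 24 h, the 8 red circles rose at both, no member was called lower at 24 h, and the heights of GBP1, GBP4 and GBP5 rest on 0 untreated counts and are not sizes.

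The 2 kinds of early change could be set beside the promoter letters. All 6 promoters found for members that rose at 4 h held the ISRE core (IFIH1, GBP1, GBP4, PARP14, PLSCR1 and TNFSF10), and 4 of 11 did for members that fell at 4 h with at least 1 dose (IFIT1, IFIT3, MX1 and IFITM1). The κB consensus was found in 2 of these 6 (IFIH1 and GBP4) and in 0 of the 11. Of the 10 promoters of members called in none of the 4 comparisons, 8 held the ISRE core, ISG15 among them. GBP1 and GBP4 passed the filter on low counts only through libraries that received LTA. The members with and without a change at 4 h were few, and no test was made.

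Interferon genes themselves were at or near 0. Of 12 ligand genes listed, covering IFN-α, β, ω, ε, κ, γ and λ members, 10 had 0 counts in every library, IFNB1 had 1 count and IFNE 2 counts over all 16 libraries. A lower level could not be seen at these depths. Of the 6 listed receptor genes, IFNAR1, IFNAR2, IFNGR1, IFNGR2 and IL10RB were tested. All 5 rose with 10 µg/ml at 24 h (against 23.6% of all genes tested). IFNLR1, the specific chain of the type III receptor, had 0 counts in untreated dHL-60 at both times and at most 5 counts in a dHL-60 group, and was not tested. Of 30 tested genes of the wider pathway (49 of 51 listed are in the table), 12 rose and 4 fell at 4 h with each dose. Of all genes, 18.7 and 20.0% rose and 20.1 and 21.3% fell with 1 and 10 µg/ml. The share of pathway genes that rose at 4 h was thus above that of all genes, and the share that fell was below it. Neither difference was tested. At 24 h 11 pathway genes rose and 0 fell with 1 µg/ml (against 13.9 and 7.26% of all genes). With 10 µg/ml 20 rose and 1 fell (against 23.6 and 19.0%). In untreated cells 21 of the 30 fell (against 23.1%) and 0 rose (against 17.8%) between 4 and 24 h.

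Of the factors that drive the members, STAT2 and IRF9 were called at 4 h with neither dose. STAT2 stood at 119 and 132 CPM untreated at 4 h, 109 and 112 with 1 µg/ml and 104 and 108 with 10 µg/ml. STAT2 went at 24 h from 73.5 and 70.6 CPM to 103 and 95.2 and to 122 and 102 (0.48 ± 0.13, adjusted p = 0.0166, and 0.66 ± 0.13, 0.00112), the first lost without either untreated library or treated replicate 1 (adjusted p up to 0.147). IRF9 went from 3.26 and 3.73 CPM to 5.92 and 5.20, which was not called, and to 7.32 and 7.07 (1.07 ± 0.29, 0.01, lost without untreated replicate 1 or treated replicate 1, adjusted p up to 0.0771). IRF9 was also below the 4 h untreated level of 5.77 and 8.82 CPM in untreated cells at 24 h. IRF7, which amplifies the interferon response and is itself interferon-inducible, went from 14.7 and 15.6 CPM to 41.0 and 44.6 and to 72.8 and 60.8 (1.52 ± 0.18, 4.88e-05, and 2.17 ± 0.18, 8.43e-07) and was not called at 4 h. IRF1, a GBP activator that NF-κB can induce, stood at 34.5 and 33.9 CPM untreated at 4 h, at 49.3 and 56.9 with 1 µg/ml and at 48.5 and 63.0 with 10 µg/ml (0.64 ± 0.16, 0.00577, and 0.71 ± 0.16, 0.00265), the first lost without treated replicate 2 (adjusted p = 0.0561). At 24 h IRF1 rose with 10 µg/ml alone (0.93 ± 0.17, 0.000628).

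Of the tested pathway genes, 2 inhibitors had the largest rises at 4 h with both doses. SOCS3, which blocks JAK kinases at cytokine receptors, stood at 5.15 and 4.37 CPM untreated at 4 h, at 101 and 194 with 1 µg/ml and at 115 and 230 with 10 µg/ml (4.96 ± 0.40, adjusted p = 6.75e-07, and 5.19 ± 0.40, 4.05e-07). SOCS1, which blocks JAKs at the interferon receptors, went from 1.85 and 1.46 CPM to 26.3 and 23.5 and to 12.4 and 29.7 (3.91 ± 0.44, 1.45e-05, and 3.68 ± 0.45, 2.25e-05). At 24 h SOCS3 went from 0.481 and 1.12 CPM to 17.2 and 21.3 and to 38.0 and 43.9 (4.67 ± 0.49, 1.85e-05, and 5.77 ± 0.48, 8.43e-07), and SOCS1 was called with 10 µg/ml alone (4.09 ± 0.74, 0.000626). On the side of falls at 4 h, the interferon gamma receptor chain IFNGR1 went from 325 and 342 CPM to 190 and 248 and to 197 and 229 (-0.61 ± 0.15, 0.00611, and -0.64 ± 0.15, 0.00404), each lost without replicate 1 of the treated group (adjusted p = 0.0746 and 0.0548). IFNGR2, the other chain of that receptor, went the opposite way, from 321 and 227 CPM to 920 and 749 and to 878 and 780 (1.61 ± 0.18, 1.61e-05, and 1.60 ± 0.18, 1.45e-05), and both calls were kept under every alternative run. DHX58 (LGP2), a partner of IFIH1, went from 17.1 and 17.0 CPM to 8.94 and 7.40 and to 6.61 and 7.0 (-1.07 ± 0.18, 0.00035, and -1.32 ± 0.18, 6.65e-05). At 24 h the RNA receptor TLR8 rose from 15.0 and 15.8 CPM to 52.0 and 38.5 and to 53.8 and 54.6 (1.57 ± 0.22 and 1.84 ± 0.22). TLR4, the receptor of lipopolysaccharide, fell with 10 µg/ml from 79.6 and 78.8 to 44.4 and 50.4 CPM (-0.72 ± 0.14, 0.000894).

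**Figure D5:**
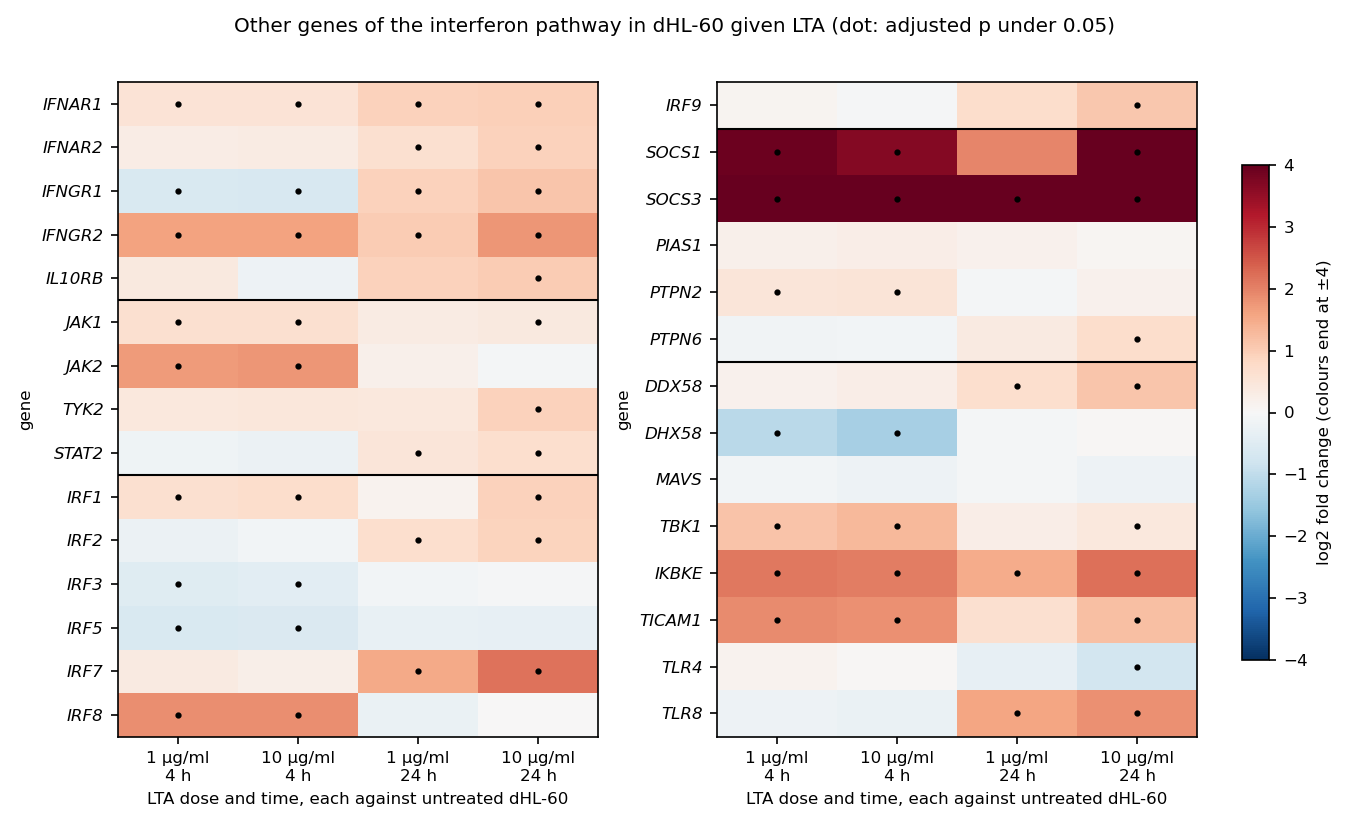
Log2 fold change (colour, ending at 4 in either direction) of 29 of the 30 tested genes of the interferon pathway list in dHL-60 given LTA against untreated cells of the same time, with lines between receptors, kinases and STAT2, interferon regulatory factors, inhibitors, and sensors and adaptors, and a dot where the adjusted p was under 0.05. SOCS1 and SOCS3 are dark at 4 h with both doses, and the 5 tested receptors are red at 24 h with 10 µg/ml.

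Some markers of cell state moved along with these changes, and several lists rested on 1 gene. The summed level of 8 mature neutrophil markers was 1270 to 1440 CPM in untreated dHL-60 at 4 h, 515 to 530 at 24 h, 2000 to 2010 with 1 µg/ml at 24 h and 3520 to 3700 with 10 µg/ml. The gelatinase gene MMP9 made up 65.6% of the last (81.8 and 51.8 CPM untreated, 2230 and 2500 with 10 µg/ml). Among them ITGAM, FPR1 and MMP9 lay above the untreated libraries with 10 µg/ml at 24 h, and CSF3R, FCGR3B, CXCR2 and CEACAM8 lay below. At 4 h with either dose MMP9 lay above and ITGAM, CSF3R, FCGR3B and CXCR2 below. The summed level of 7 promyelocyte markers, 86.3% of it MPO with 10 µg/ml at 24 h, was 17200 to 22500 CPM in untreated cells at 24 h and 4880 to 6030 with 10 µg/ml, and all 7 lay below the untreated libraries at 24 h with either dose.

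The 8 macrophage markers summed to 44.1 to 72.7 CPM untreated at 4 h, 10.4 to 12.9 and 12.1 to 13.3 with 1 and 10 µg/ml at 4 h, and at 24 h to 24.1 to 24.4 untreated, 97.6 to 113 with 1 µg/ml and 123 to 142 with 10 µg/ml. With LTA, CSF1R alone made up 79.5 to 96.7% of these sums, C1QA reached 6.57 CPM, and CD68, CD163, MSR1, MRC1, C1QB and MARCO stayed under 1 CPM in every dHL-60 library. Of the 6 plasmacytoid dendritic cell markers, of the main interferon-producing cell type, TCF4 stood between 32.3 and 62.7 CPM in the dHL-60 libraries and IL3RA reached 7.45, while CLEC4C, JCHAIN and GZMB had at most 3 counts in a group and LILRA4 at most 17. The 6 eosinophil and basophil markers summed to 32.5 to 36.4 CPM untreated at 4 h and to 5.96 to 9.45 and 7.60 to 11.7 with 1 and 10 µg/ml, with CCR3 at 34.4 and 24.4 CPM untreated against at most 4.34 with LTA. At 24 h they summed to 28.8 to 29.3 CPM untreated and 14.7 to 26.3 with LTA, and in uHL-60 to 4150 to 4480, nearly all of it PRG2 (4140 to 4460). The 6 lymphocyte markers summed to at most 2.88 in dHL-60. No listed marker was at 0 in all dHL-60 libraries. In these bulk samples fewer cells of a type and less RNA per cell cannot be told apart, and the part of these markers in the results was not tested.

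In undifferentiated cells no member was called with LTA. With the 2 times together serving as replicates, edgeR called 0 of 35 tested members higher (against 0.0998% of all 11020 genes) or lower (against 0.109%), 1 member had an unadjusted p under 0.05, and DESeq2 called 0. Within a time there is only 1 library a group, and exact binomial intervals of the ratio cover counting error only. Of 43 members with counts at 4 h, they left out 1 for IFIT1 (2.47, 1.01 to 6.61) and SAMD9 (0.876, 0.771 to 0.996). At 24 h they left out 1 for 6 of 46 members with counts. IFIH1 (1.24, 1.05 to 1.46) and DTX3L (1.16, 1.02 to 1.30) lay above it, and ADAR, ISG15, CMPK2 and LGALS3BP below it. These intervals were not counted over all genes, so whether the members stand out was not tested. GBP1 had 0 counts in all 4 uHL-60 libraries. IFIT3 stood between 2.23 and 2.59 CPM, OAS1 between 1.14 and 1.74, MX1 between 1.21 and 1.87, IFITM3 between 0.560 and 0.841, ISG15 between 5.54 and 7.87 and RSAD2 between 0.0495 and 0.206.

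The response to 1 µg/ml was tested between cell states, with each lone uHL-60 library assumed to vary like the dHL-60 pairs. At 4 h it was larger in dHL-60 for 5 of 43 tested members (11.6%, against 5.43% of all genes), namely IFIH1, GBP2, GBP5, PLSCR1 and TNFSF10, and lower for UBE2L6 (2.33%, against 4.91%). GBP2 was at 0.346 and 0.575 CPM in the untreated and treated uHL-60 library at 4 h and the difference in response was 3.06 ± 0.87 (adjusted p = 0.0372). GBP5, at 0.297 and 0.345 CPM there, gave 3.40 ± 0.93 (0.035), UBE2L6, at 18.0 and 16.8 CPM, gave -1.05 ± 0.25 (0.0163), and TNFSF10, at 2.82 and 2.88 CPM, gave 2.74 ± 0.39 (0.000811). GBP5 passed the filter on low counts only through dHL-60 libraries that received LTA, where it was high. Its p-value therefore adds no separate support, and the counts of members were not repeated without such genes. At 24 h the response was larger in dHL-60 for 4 members (9.30%, against 1.35%) and lower for 0 (against 0.278%). These were TNFSF10 (1.96 ± 0.38, 0.0209), PARP9 (1.55 ± 0.30, 0.0195), PARP14 and PLSCR1. Without untreated dHL-60 replicate 2, or replicate 1 of the 1 µg/ml group, 0 members were called at 24 h, so none of the 4 calls was kept under every alternative run. The calls of GBP2, GBP5 and UBE2L6 at 4 h were each lost without at least 1 library (adjusted p up to 0.0524, 0.0705 and 0.0564), and 3 members were lower without replicate 2 of either dHL-60 group.

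Untreated cells of both states differed in many genes, members among them. The share of members higher in dHL-60 was near that of all genes, and the share lower was below it. Over the 4 untreated dHL-60 and 2 untreated uHL-60 libraries, with time as a term, 13 of 38 tested members were higher in dHL-60 (34.2%, against 29.7% of all genes) and 7 lower (18.4%, against 28.3%). GBP2 (0.346 and 0.308 CPM in uHL-60 at 4 and 24 h) was higher by 4.09 ± 0.79 (adjusted p = 0.00228) and IFITM1 (0.198 and 0.154 CPM) by 3.19 ± 0.52 (0.000916). BST2, TRIM21, IFI16 and TNFSF10 were also higher in dHL-60. USP18 stood at 1.53 and 2.16 CPM in untreated uHL-60 and had 1 count over the 2 untreated dHL-60 libraries at each time (0.000307), and GBP4 stood at 0.792 and 1.80 CPM against 4 and 0 counts (0.00495). LAP3, HERC5, CMPK2, OAS3 and LGALS3BP were lower in dHL-60 as well. In this comparison GBP2 and IFITM1 passed the filter on low counts only through dHL-60 libraries, where they were high. USP18 and GBP4 passed it only through the uHL-60 libraries, where they were high. The p-values of these genes therefore add no separate support, and the 13 and 7 were not recounted without such members. The counts rested on the uHL-60 libraries: without that of 24 h 20 members were higher and 3 lower, without that of 4 h 10 were higher and 13 lower, and without untreated dHL-60 replicate 1 of 24 h 4 were lower. Nothing in the design separates differentiation from a culture or preparation that the uHL-60 libraries had in common, so the 2 cannot be told apart.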

How the data were processed

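RNA of 12 dHL-60 and 4 uHL-60 libraries was sequenced from a stranded mRNA kit, per the labels' protocols. The deposited table holds raw counts per gene for 23575 symbols. The submitters' processing notes name fastp 0.20.0 (a read trimmer), HISAT2 2.1.0 (an aligner), featureCounts 2.0.1 (a read counter) and the build GRCh38, without saying how each was run. Whether reads were counted by strand is not stated, so genes that overlap on opposite strands may share reads. The values of 1343 symbols sat at another position in the uHL-60 columns, which follow a plain character sort of the symbols, and were put back by name before use (0 members and 2 other listed genes among them).

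From these counts, edgeR 4.0.16 in R 4.3.3 was used with TMM scaling, its filter on low counts, the quasi-likelihood F test (two-sided) and Benjamini-Hochberg adjustment over all genes tested, with a threshold of 0.05. The 12 dHL-60 libraries were fitted together, the 6 untreated libraries and the 4 uHL-60 libraries each with time as a term, and all 16 for differences in response. The fit was also run on simulated counts with the same spread for every gene. That setting is simpler than these data, so the run does not check the calls made here. Replicates of a group differed by more than sampling noise (chi-square per degree of freedom 10.3 to 18.9), so each counted as 1 sample. Ratios with few counts have 95% exact binomial intervals, and a group at 0 is set at a floor of 3 counts over the group, and both cover counting error only. Alternatives were DESeq2 1.42.0, its size factors, upper-quartile scaling, no filter, only the groups compared, a replicate block, the uHL-60 columns as deposited and leaving out each library. Replicate numbers were not used to pair the libraries in the main fit, since the labels do not say what they share. Levels per kilobase use GENCODE exon lengths.

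Members and lists were chosen with earlier results of these data known. Genes given in every library were the 3 largest changes each way in each LTA comparison (2 in others) among called members whose groups did not overlap, and IFIT1, IFIT3, ISG15, MX1, OAS1, RSAD2, IFITM3 and GBP1. For the pathway list they were STAT2, IRF1, IRF7, IRF9 and the 2 largest changes each way. Another gene of that list is counted in its totals and is not reported here. Other members were named by class, after their values were seen.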

Additional observations from a re-analysis of the deposited data

Results flagged for a closer look

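The response to LTA differed between times, by an interaction term in edgeR, for several members. With 1 µg/ml the log2 response at 24 h minus that at 4 h was 4.35 for IFITM1, 3.26 for IFIT3 and -0.93 for IFIH1. With 10 µg/ml it was 4.97 for IFIT1, 4.77 for IFIT2 and -1.11 for IFIH1. IFIT1 and IFIT2 passed the filter on low counts only through libraries that received LTA, and among those both were highest with 10 µg/ml at 24 h. The value of IFIT2 was no longer called without untreated replicate 2 of 4 h (adjusted p = 0.0725), the library in which IFIT2 stood at 2.40 CPM against 0.412 in the other. The same 2 untreated libraries of each time enter both doses, and untreated levels themselves changed between the times.

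The response to 1 µg/ml also differed between dHL-60 and uHL-60. At 4 h the difference was 3.40 for GBP5, 3.06 for GBP2 and -1.05 for UBE2L6, and at 24 h it was 1.96 for TNFSF10 and 1.55 for PARP9. GBP5 passed the filter on low counts only through dHL-60 libraries that received LTA, where it was high. Each uHL-60 group is 1 library. Each of these 5 calls was lost without at least 1 of the 4 dHL-60 libraries, GBP2 without replicate 1 of the 1 µg/ml group alone.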

How the results depend on the processing

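Calls kept under every alternative run numbered 13 of 21 and 11 of 19 at 4 h (1 and 10 µg/ml), 11 of 18 and 19 of 29 at 24 h, 10 of 24 in untreated cells over time, 14 of 15 and 16 of 26 for the difference in response between times, and 14 of 20 between untreated cell states. The causes of the changes below were not tested.

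With upper-quartile scaling 1 member was lower with 10 µg/ml at 24 h (0 otherwise). For 10 against 1 µg/ml, genes called at 4 h were 2 with DESeq2, 22 with no filter and 2 in a fit of only the groups compared (1 otherwise), and at 24 h 765, 1354 and 800 (453 otherwise). For dHL-60 minus uHL-60, members lower at 4 h were 2 with DESeq2, 6 with no filter and 2 with upper-quartile scaling (1 otherwise). At 24 h all genes called were 397 with DESeq2 and 652 with no filter (205 otherwise), and members higher were 8 with no filter (4 otherwise). In uHL-60, DESeq2 called 1 gene (23 otherwise). Signs turned for 2 members in untreated dHL-60 against uHL-60: IFIT3 was 1.08 (adjusted p = 0.0384) without the uHL-60 library of 24 h and -1.33 without that of 4 h, and PARP9 was 0.79 and -0.70 (0.0332). DESeq2 gave no adjusted p for 13 members between doses at 24 h, and for 10 in each difference between cell states.

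Leaving out each library in turn gave these ranges. With 1 µg/ml at 4 h 7 to 8 members rose and 8 to 11 fell (3404 to 4142 genes called), and with 10 µg/ml 7 to 8 rose and 4 to 11 fell (3181 to 4355). At 24 h 13 to 16 rose with 1 µg/ml (1139 to 1758 genes), and 20 to 24 rose and 0 to 1 fell with 10 µg/ml (3400 to 4469). Between doses 1 to 2 genes were called at 4 h, and at 24 h 1 to 3 members were higher (49 to 662 genes). In untreated cells over time 14 to 19 fell (3138 to 4226 genes). For the response at 24 h minus 4 h, 13 to 16 members were higher and 1 to 2 lower with 1 µg/ml (1614 to 2270 genes) and 16 to 22 higher with 10 µg/ml (2660 to 4051). Between untreated states 10 to 20 were higher and 3 to 13 lower (5389 to 7870 genes). For dHL-60 minus uHL-60, 4 were higher and 1 to 3 lower at 4 h (1003 to 1318 genes), and 0 to 3 higher at 24 h (88 to 222). No library can be left out of uHL-60 with LTA against untreated.

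Same-numbered libraries of 15 pairs of groups had correlations of deviations from -0.50 to 0.61, over 0.1 in 6, so the numbers give no uniform pairing. The highest was between the untreated and 1 µg/ml groups at 4 h. The lowest was between the untreated and 10 µg/ml groups at 24 h. Whether some libraries shared a batch was not tested. With the replicate block, members higher and lower were 8 and 13, and 8 and 11 at 4 h, 19 and 0, and 29 and 0 at 24 h, 0 and 0, and 6 and 0 between doses, and 1 and 22 in untreated cells over time, with 4738, 5011, 2680, 5190, 1, 663 and 4972 genes called. For the difference in response between times they were 15 and 1 (2635 genes) and 25 and 1 (4170 genes). At these depths the 8 untested members and the GBP levels of untreated cells at 24 h are limited by counting.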
